A study of Mus musculus with 6 samples.

Results

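The 50 genes described here act in mitosis and chromosome structure. They were followed in a mouse T-cell leukaemia (T-ALL) in samples labelled Phf6 wild type or Phf6 knockout. They are subunits of condensin and cohesin and of the machinery that builds, times and checks chromosome segregation. They were taken by gene symbol from a list written with earlier results of these data known, and all 50 were found among the 23306 genes of the deposited table. All 50 also passed the filter on low values. The study measured polyA RNA in 6 bone marrow samples of one isogenic leukaemia on the C57BL/6 background, 3 labelled Phf6 wild type and 3 labelled Phf6 knockout. PHF6 is a nuclear protein with PHD fingers, its gene lies on the X chromosome, and the deletion was conditional, through a Cre recombinase that tamoxifen switches on. Animals were injected intraperitoneally with tamoxifen or with its carrier, corn oil. The labels do not tie each sample to its injection, and an effect of tamoxifen and one of the deletion cannot be told apart. The sources used here do not give the promoter driving Cre, the event that started the leukaemia, the age and sex of the animals or which animal each sample came from. The p-values therefore measure the spread between these samples, which may be technical.

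Libraries held 46067511 to 54953145 reads assigned to genes. Values by library are given below in the order of libraries 1, 2 and 3, as normalised reads unless another unit is named. Phf6 itself had 5508, 4239.6 and 5075 in wild type and 1781, 2337 and 1755 in knockout, so that every knockout library was lower (log2 fold change -1.34 ± 0.13 SE, limma adjusted p = 0.00184). Phf6 reads thus remained in every knockout library, and their source was not tested. The 15 T-cell markers examined were all present, at 7.32 to 645 RPKM, the level per length used below (reads scaled by exon length and library total).

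Cohesin is a ring of the ATPases SMC1A and SMC3 and the kleisin RAD21 that holds sister chromatids together and folds interphase chromatin into loops. Condensin I and condensin II share the ATPases SMC2 and SMC4 and compact chromosomes for mitosis. At anaphase the checkpoint releases CDC20, the anaphase-promoting complex destroys securin and cyclin B, and separase then cuts cohesin. Many of these genes are transcribed in G2 and M phase under the DREAM and MuvB-FOXM1 complexes, which bind a cell cycle genes homology region (CHR) near the start site, often with CCAAT boxes bound by NF-Y upstream. T-ALL blasts divide quickly, so such transcripts are abundant in them.

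The promoters of these genes shared short motifs that the choice of members did not use. RefSeq promoter windows on GRCm38.p6, from 250 bases before a listed gene start to 50 after, were matched for 40 of the 50 members. Of these, 4 have more than 1 listed start, and a gene was counted when any of its windows held the motif. The CHR hexamer TTTGAA, searched on both strands, occurred in 25 of the 40 (62.5%) and in 20.2% of all 27025 genes of the promoter table. The CCAAT box, also on both strands, occurred in 27 of the 40 (67.5%) and in 41.1% of all genes. Both were found in 20 members (50%), against 8.97% of all genes, though not always in the same window. In Tmpo the CCAAT boxes lie at the first listed start and the CHR only at a later one. The palindromic CHR variant TTCGAA occurred in 5 members (1.8% of all genes), the E2F heptamer TTCCCGC in 6 (5.29%) and its variant TTGGCGC in 8 (2.85%), each on both strands. The letters of TTGGCGC can overlap those of a CCAAT box on the other strand. A match describes letters only, and no match says only that they are not in this window.

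By role, and counting any listed start, the CHR hexamer was in 5 of 6 matched genes of the chromatin, cytokinesis and nuclear envelope group. It was in 5 of 7 of condensin. These counts include Tmpo and, in condensin, Ncapd3, where the hexamer was found only at a later listed start. The hexamer was in 4 of 5 cyclins and kinases, 4 of 6 checkpoint genes, 4 of 6 centromere and kinetochore genes and 1 of 2 passenger genes. In the cohesin group it was in 2 of 8 matched genes, Pds5b and Espl1. Stretches of 120 bases, from 100 before the start to 20 after, show these layouts on the gene's own strand, 5′ to 3′, with CHR, CHR variant and CCAAT letters in capitals on either strand. Cdc20 (chr4:118437324-118437443, minus strand), Ccnb2 (chr9:70421535-70421654, minus strand), Cenpf (chr1:189688067-189688186, minus strand) and Espl1 (chr15:102296193-102296312, plus strand) carry both motifs. Psrc1 (chr3:108383704-108383823, plus strand), one of the members that fell, carries the variant and a CCAAT box, and Smc1a (chrX:152016328-152016447, plus strand), a cohesin core gene, has a CCAAT box in reverse and no CHR in its window.
Cdc20: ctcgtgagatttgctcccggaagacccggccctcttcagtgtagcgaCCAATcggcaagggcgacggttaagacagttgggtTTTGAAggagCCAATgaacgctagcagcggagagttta
Ccnb2: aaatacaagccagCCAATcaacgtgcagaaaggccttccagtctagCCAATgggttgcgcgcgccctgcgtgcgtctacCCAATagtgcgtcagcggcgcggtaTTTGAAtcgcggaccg
Cenpf: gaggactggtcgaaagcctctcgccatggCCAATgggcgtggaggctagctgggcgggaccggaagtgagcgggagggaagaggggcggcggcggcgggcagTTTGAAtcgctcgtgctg
Espl1: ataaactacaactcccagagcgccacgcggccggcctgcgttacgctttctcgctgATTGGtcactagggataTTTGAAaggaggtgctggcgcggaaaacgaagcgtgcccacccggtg
Psrc1: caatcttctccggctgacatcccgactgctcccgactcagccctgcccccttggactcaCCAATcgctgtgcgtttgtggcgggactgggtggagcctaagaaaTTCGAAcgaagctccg
Smc1a: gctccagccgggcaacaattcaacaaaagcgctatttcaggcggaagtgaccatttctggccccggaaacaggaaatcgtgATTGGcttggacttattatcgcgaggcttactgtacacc
In Cdc20 the CHR begins 18 bases before the start, in Espl1 27 before, and in Ccnb2 and Cenpf at positions 5 and 3 of the transcript. Promoters of Smc4, Rad21, Stag2, Esco1, Esco2, Ccna2, Tpx2, Aurkb, Incenp and Spc24 were not used here.

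**Figure D1:**
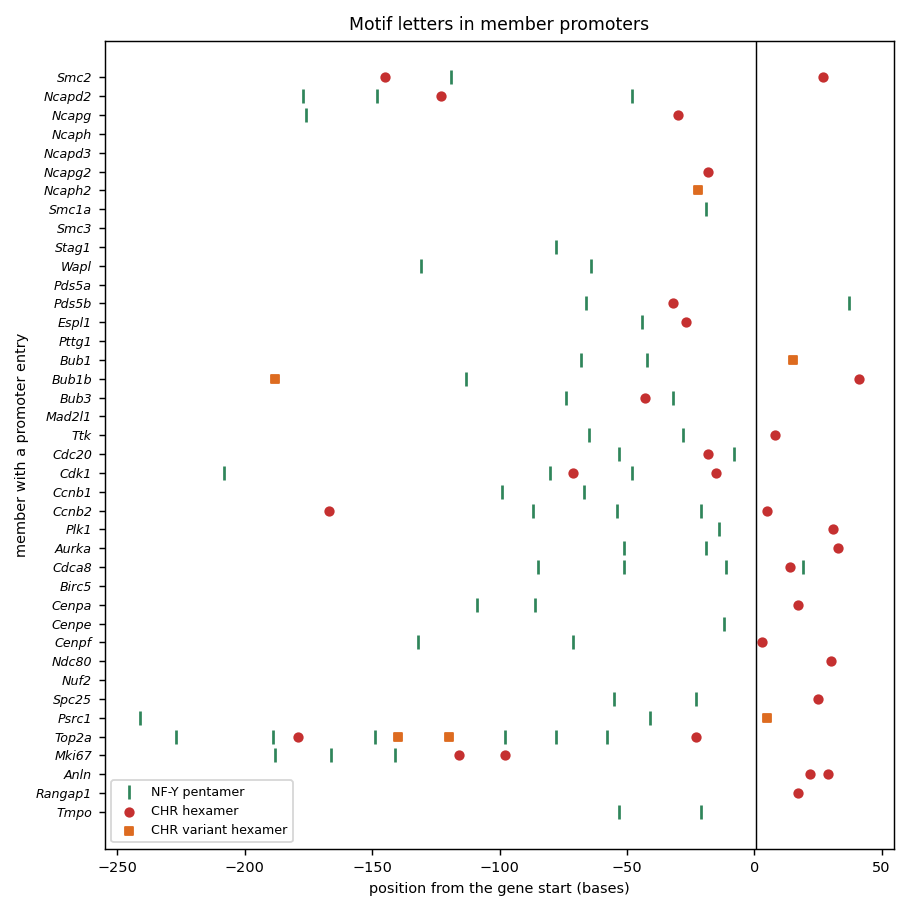
Position, in bases from the gene start (vertical line), of the CHR hexamer (red circles), its variant (orange squares) and the NF-Y pentamer (green bars) in the 40 members with a promoter entry, at the first listed start site. CHR letters lie within 100 bases of the start in most cyclin, checkpoint, kinetochore and chromatin or envelope genes, and most cohesin genes have none.

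Of the 50 members 5 fell, none rose (in limma, edgeR or DESeq2), and 49 had a log2 fold change below 0 (limma on log2(value + 2), Benjamini-Hochberg adjustment over all genes tested, threshold 0.05). Values below 0 were 98% of the members, 51.7% of all genes tested and 62.6% of genes with a mean of at least 10 CPM (reads scaled by the library total). The 5 were the condensin ATPase Smc4, the kinetochore gene Spc24, the spindle gene Psrc1, and Rangap1 and Tmpo, which act in nuclear transport and the nuclear envelope. The share that fell was 10%, against a background of 3.43% of the 17993 genes tested, and 5.32% of all genes rose. Because all 50 members had a mean of at least 10 CPM, the 9187 genes at that level are a closer background. Of these, 5.57% fell and 242 genes rose. The median log2 fold change of the members was -0.24, against -0.01 over all genes tested and -0.07 over genes with at least 10 CPM. At an unadjusted p under 0.05 there were 22 members, all lower, where 12.5% of all genes and 19.5% of those with at least 10 CPM were lower at that p. The summed level of the 50 was 9045, 7206 and 8589 CPM in wild type, against 7536, 7301 and 6837 CPM in knockout, and the groups overlapped.

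All 3 knockout values lay below all 3 wild-type values for 15 members (30%), against 16.2% of all genes tested and 23.6% of those with at least 10 CPM. These were Smc4, Ncaph, Smc1a, Pds5b, Espl1, Bub1b, Bub3, Aurka, Cdca8, Nuf2, Spc24, Psrc1, Top2a, Rangap1 and Tmpo. For the other 35 the groups overlapped in at least 1 library.

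The number that fell depended on the tool and on single libraries. On recovered reads, edgeR called Smc4, Spc24 and Rangap1 (background 2.84% of genes) and DESeq2 called 9 members (background 5.02%), adding Bub1b, Cdc20, Espl1 and Plk1 to the 5. At an adjusted p under 0.1 limma gave 12 members (6.75% of genes) and at 0.01 none (0.495%), and without its trend and robust options none fell (0.689%). With upper-quartile scaling 1 member fell, Smc4 (2.36%). Scaled by library totals, 1 member fell (Smc4, background 1.67%) and 45 were below 0, while over all genes 1217 rose and 300 fell, against 957 and 618 with the deposited scaling. Without wild-type library 1 no member fell (background 0.506%), without library 2 there were 17 (4.37%) and without library 3 there was 1 (0.956%). Leaving out knockout library 1 gave 7 (2.20%), library 2 gave none (2.01%) and library 3 none (0.406%). Smc4 was the call without wild-type library 3, and among the 5 Psrc1 was lost without wild-type library 2 and Smc4 and Tmpo without knockout library 1. Between 43 and 50 members were below 0 when any 1 library was left out.

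**Figure D2:**
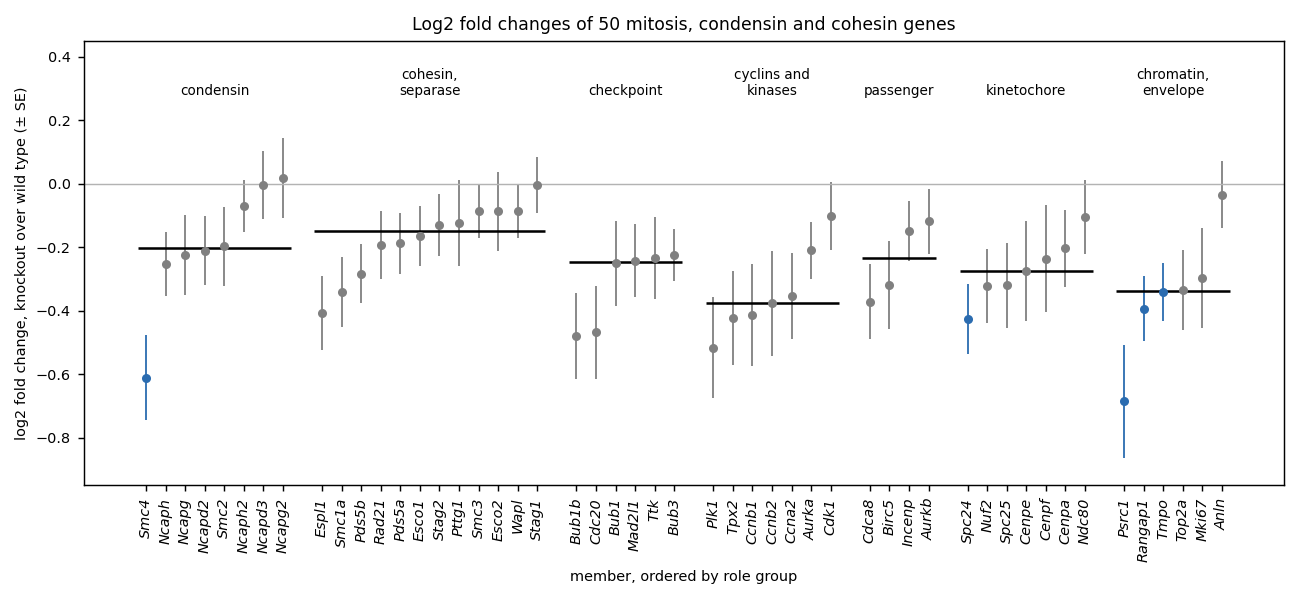
Points give each member's log2 fold change (knockout minus wild type) and lines its SE, by role, with members that fell in blue, the others in grey and the group median as a black bar. Medians run from -0.15 in the cohesin group to -0.38 among cyclins and kinases, and Psrc1 and Smc4 lie lowest.

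Libraries of 1 genotype differed from each other in a shared way. Wild-type library 2 was the lowest wild-type library for 44 of the 50 members and knockout library 3 the lowest knockout library for 44, against 40.8% and 45.4% of all genes with at least 10 CPM. As the median over members of the log2 difference from each gene's mean, wild-type libraries stood at 0.23, -0.03 and 0.18, and knockout libraries 1 to 3 at -0.01, -0.10 and -0.27. Wild-type library 2 and knockout library 1 were thus about level, and the widest gap was between wild-type library 1 and knockout library 3. Without both wild-type library 2 and knockout library 3, an alternative added after the data were seen, 7 members fell (background 2.13%): Bub1b, Espl1, Mki67, Plk1, Smc1a, Tmpo and Tpx2.

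Markers of other cell types and mitochondrial reads differed between the same libraries. The summed level of 16 neutrophil and granulocyte precursor markers was 122, 455 and 200.3 CPM in wild type, against 1312, 1340.2 and 1066 CPM in knockout. All 16 had positive log2 fold changes (median 2.38), 9 of them rose (5 in edgeR, 16 in DESeq2), and none was at 0 reads in every library. Over all 17993 genes tested, 957 rose in limma (5.32%), 958 in edgeR and 1329 in DESeq2, while 3.43% fell in limma. Summed T-cell markers were 6638 to 7141 CPM in wild type and 5686 to 6579 CPM in knockout, with 3 of 15 falling (Cd247 at -0.57, Cd5 at -0.48 and Tcf7 at -0.49) and a median of -0.23. Monocyte and macrophage markers summed to 39.6 to 88.6 CPM in wild type and 152 to 260 CPM in knockout, with 5 of 12 rising. B-cell markers summed to 3.09 to 4.22 and 7.12 to 17.1 CPM, with 6 of 8 tested markers rising. Erythroid markers, of dividing red cell precursors, summed to 6.08 to 11.6 and 7.25 to 17.4 CPM, and none of 7 tested passed in limma, edgeR or DESeq2 (0 at an unadjusted p under 0.05 in each). Stromal and endothelial markers summed to 489.9 to 581 and 666 to 858 CPM. Most of that sum was Col1a2 (509 CPM, log2 fold change 0.49, limma adjusted p = 0.0529), which edgeR and DESeq2 called higher, and the 1 of 4 that fell, Col1a1, was at 1.69 CPM. Mitochondrial genes took 1.81% to 1.99% of wild-type reads and 2.38%, 2.35% and 3.20% of knockout reads in libraries 1 to 3. The part of these differences in the results on the mitosis genes was not tested. In such bulk samples, fewer dividing cells and less RNA per cell cannot be told apart.

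**Figure D3:**
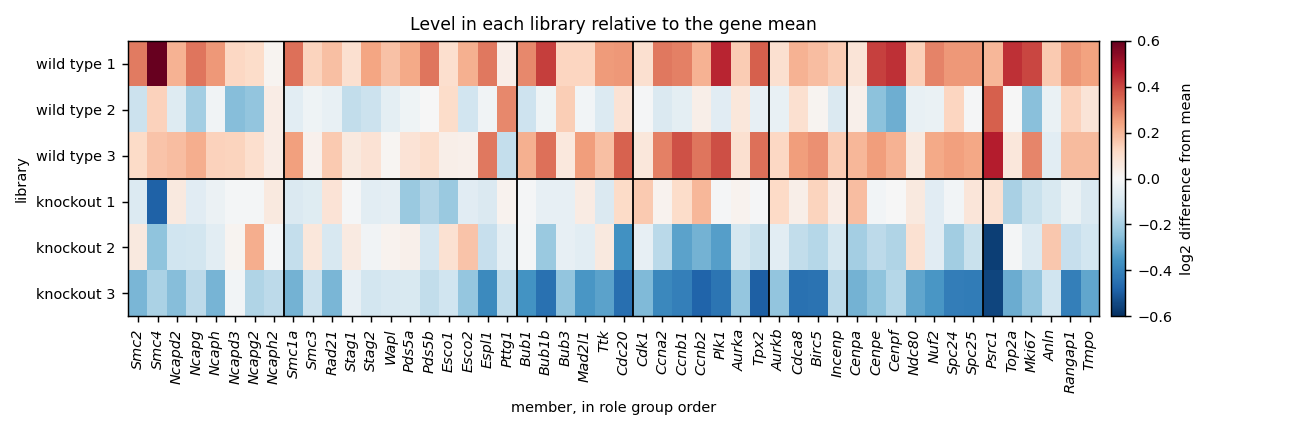
Log2 difference of each member from its mean over the 6 libraries (colour, red above and blue below), with libraries in rows and members in columns by role group (black lines). Wild-type library 1 is above the mean for nearly all members and knockout library 3 below it, while wild-type library 2 and knockout library 1 are near 0 for most.

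Of the 8 condensin genes 1 fell, Smc4, and the median log2 fold change was -0.20. Smc4, on chromosome 3 (GRCm38, 69004738 to 69034623), had 45679, 33050 and 33748 normalised reads in wild type, and 21458, 25349.9 and 26293 in knockout. Every knockout library was below every wild-type library, and the knockout mean was 35.0% lower (37492 ± 7099 against 24367 ± 2563, SD, n = 3 each). Its log2 fold change was -0.61 ± 0.13 (SE; limma adjusted p = 0.0252, 0.000921 to 0.101 over the alternatives). It was called in 13 of 19 alternatives, more than any other member.

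Smc2, the obligate partner of SMC4 at the protein level, had a log2 fold change of -0.20 and overlapping groups. Per length, Smc4 was also the most abundant member at 119.8 RPKM, against 28.7 for Smc2. The ratio of Smc4 to Smc2 was 5.03, 4.93 and 4.26 in wild type, and 3.10, 3.32 and 4.34 in knockout. Knockout library 3 lay within the wild-type range, and the difference did not pass (two-sided exact permutation p = 0.2, Benjamini-Hochberg adjusted p = 0.267 over 12 ratios of single genes). The smallest p that 3 against 3 allows is 0.1, so no such ratio could pass. Both levels in such a ratio come from the same library, so scaling does not enter it. These ratios were picked with their values in view.

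The subunits particular to condensin I, which acts after nuclear envelope breakdown, and condensin II, which is nuclear throughout the cycle, were also measured. The condensin I genes Ncapd2, Ncapg and Ncaph had log2 fold changes of -0.21, -0.22 and -0.25. The condensin II genes Ncapd3, Ncapg2 and Ncaph2 had -0.004, 0.02 and -0.07, with 95% intervals of -0.24 to 0.24, -0.26 to 0.30 and -0.25 to 0.11. None of the 6 passed the test, and the small condensin II values changed sign in some alternatives. The ratio of condensin I to condensin II, from geometric means of the 3 subunits per length, was 1.34, 1.22 and 1.26 in wild type, and 1.16, 1.05 and 1.09 in knockout. The groups did not overlap, and no test was made of this score. Of its 3 component ratios, Ncapd2 to Ncapd3 and Ncaph to Ncaph2 overlapped between groups. Ncapg to Ncapg2 was apart but nearly touched, at 0.908 in wild-type library 2 and 0.901 in knockout library 3. Among single genes tested, 31.2% had groups apart in either direction. Ncapg shares 13.4% of its exon bases with Lcorl, and Ncaph2 shares 19.8% with Sco2 and 12.7% with Tymp, all on the opposite strand, where the strand setting of the counting is not given.

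**Figure D4:**
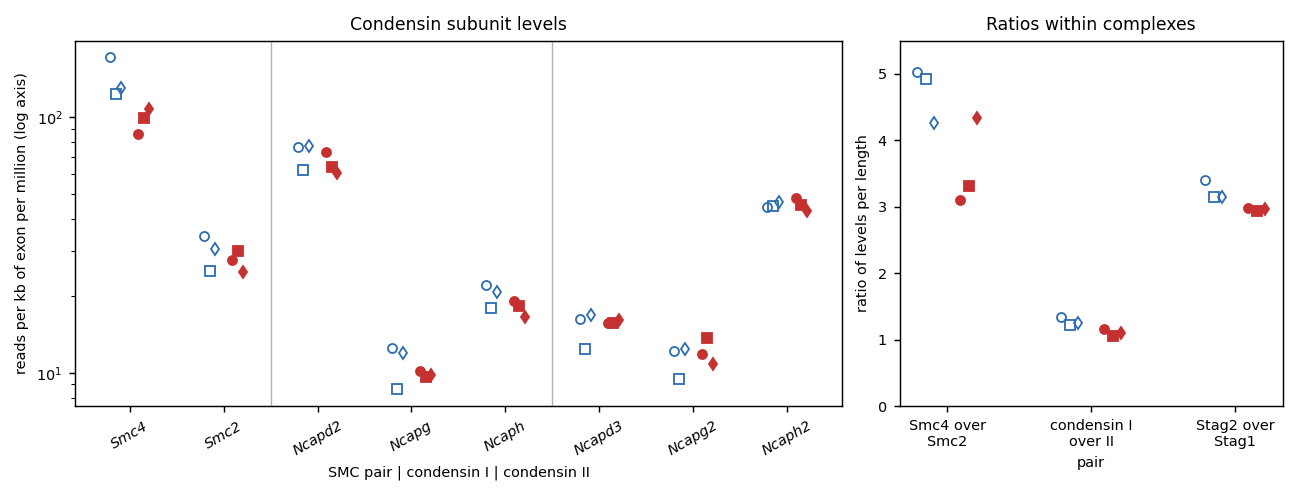
Left, level per length of the 8 condensin subunits on a log axis in wild-type (open blue) and knockout (filled red) libraries, with circle, square and diamond for libraries 1, 2 and 3. Right, ratios of levels per length, where the groups are apart for condensin I over II and for Stag2 over Stag1 and overlap for Smc4 over Smc2.

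None of the 12 genes of cohesin, its regulators and the anaphase switch passed the test, and their median of -0.15 was the smallest of the 7 role groups. All 12 values were below 0. At an unadjusted p under 0.05 there were 3 in limma, Espl1, Smc1a and Pds5b. For this and the later counts at that p, the limma background is 12.5% of all genes tested. Among genes with at least 10 CPM, 19.5% were lower at that p. Of the 12, edgeR called 0 and DESeq2 called 1, Espl1. Espl1 encodes separase, the protease that cuts cohesin. It had 5134, 4059 and 5139.8 normalised reads in wild type, and 3884, 3744 and 3162 in knockout, with no overlap (log2 fold change -0.41 ± 0.12 SE, limma adjusted p = 0.0599). Pttg1, its inhibitor securin, was at -0.12, with the highest value in wild-type library 2.

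In the core ring, Rad21 was the most abundant, with 18608, 15894 and 18276 reads in wild type, and 17366.5, 15334 and 13595 in knockout. The groups overlapped (log2 fold change -0.19, limma adjusted p = 0.295). Smc1a, which is X-linked like Phf6, had 16601, 12657 and 15655 reads in wild type and 12462, 11981 and 10852 in knockout, so that the highest knockout library was just under the lowest wild-type one (-0.34 ± 0.11 SE, limma adjusted p = 0.0862). Smc3 was at -0.09. Stag1 and Stag2, whose products are alternative subunits of the ring, were at -0.005 and -0.13. Stag2 is also X-linked, and its groups overlapped. Stag2 to Stag1, per length, was 3.41, 3.14 and 3.15 in wild type, and 2.98, 2.94 and 2.97 in knockout, which did not overlap (two-sided exact permutation p = 0.1, the smallest possible, and 0.267 after adjustment). Among the release and acetylation factors, Pds5b was at -0.28, Pds5a at -0.19, Esco1 at -0.17, and Esco2 and the release factor Wapl at -0.09 each.

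The 6 spindle checkpoint genes had a median of -0.25, and none passed the test in limma or edgeR, with 3 at an unadjusted p under 0.05 in limma. DESeq2 called Bub1b and Cdc20. Bub1b, which encodes the checkpoint kinase BUBR1, had 8543, 6284 and 8063 reads in wild type, and 6191, 5481 and 4697 in knockout. The groups were apart by less than the gap between wild-type libraries (log2 fold change -0.48 ± 0.14 SE, limma adjusted p = 0.0595). Cdc20, the activator of the anaphase-promoting complex and the most abundant of the 6 per length (68.0 RPKM), had 7359, 6531 and 7868 reads in wild type and 6653, 4786 and 4486 in knockout. Knockout library 1 overlapped the wild-type range (-0.47, limma adjusted p = 0.0841). The checkpoint kinase genes Bub1 and Ttk were at -0.25 and -0.23, Mad2l1, the inhibitor of CDC20, at -0.24, and Bub3, the adaptor that brings BUB1 to kinetochores, at -0.22.

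Cyclins and mitotic kinases had the lowest median, -0.38, and the widest spread between libraries of a genotype (pooled SD 0.21 of the group's median deviation). None of the 7 passed the test in limma or edgeR, with 5 at an unadjusted p under 0.05 in limma, and DESeq2 called Plk1. Plk1, which encodes polo-like kinase 1, had 4299, 2979 and 4088 reads in wild type, and 3108, 2489.6 and 2309 in knockout (log2 fold change -0.52 ± 0.16 SE, limma adjusted p = 0.0817). Wild-type library 2 was below knockout library 1. Plk1 shares 7.09% of its exon bases with Gm44985 on the opposite strand. Ccnb2, a B-type cyclin and the most abundant of the group per length (65.2 RPKM), had 5583, 4963 and 6053 reads in wild type and 5555, 3973 and 3468 in knockout, so knockout library 1 lay within the wild-type range (-0.38, limma adjusted p = 0.202). Ccnb1 was at -0.41, Ccna2, the cyclin of S phase and mitotic entry, at -0.35, and Cdk1, the catalytic partner of both, at -0.10. Aurka, the spindle pole kinase, was at -0.21 and its activator Tpx2 at -0.42. Ccna2 shares 12.5% of its exon bases with Exosc9 on the opposite strand.

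The chromosomal passenger complex corrects faulty microtubule attachments. Its 4 genes were at -0.37 for Cdca8 (borealin), -0.32 for Birc5 (survivin), -0.15 for the scaffold Incenp and -0.12 for the kinase Aurkb, and none passed the test in limma, edgeR or DESeq2, with 2, 1 and 1 at an unadjusted p under 0.05. Cdca8 had 5769.6, 5329.9 and 5945 reads in wild type, and 5111, 4509.7 and 3663 in knockout, without overlap (limma adjusted p = 0.0814). Incenp, at 41.5 RPKM the most abundant of the 4, had 9817, 8323 and 9825 reads in wild type and 9092, 8209 and 7891 in knockout, and its groups overlapped.

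At the centromere and kinetochore 1 of 7 genes fell. Spc24, one arm of the NDC80 complex that holds microtubules, is on chromosome 9 (21755442 to 21760303) and had 2426, 2216 and 2405 reads in wild type, and 1999, 1751 and 1520.4 in knockout. Groups were apart, and the fall was 25.2% (log2 fold change -0.43 ± 0.11 SE, limma adjusted p = 0.0411, 0.0143 to 0.157 over the alternatives). The other subunits of that complex had values of -0.32 for Nuf2, -0.32 for Spc25 and -0.10 for Ndc80. The motor gene Cenpe was at -0.27, the corona gene Cenpf at -0.24 and Cenpa, the centromeric histone H3 variant, at -0.20. Knockout library 3 had the lowest knockout value for 6 of these 7 genes, all but Cenpf.

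Of the 6 remaining genes, which act on chromatin, in cytokinesis or at the nuclear envelope, 3 fell in limma and DESeq2 and 1, Rangap1, in edgeR. Psrc1, which encodes a spindle-associated protein, is on chromosome 3 (108383839 to 108388231) and had 859, 961 and 1037 reads in wild type, and 797, 505 and 509 in knockout. It had the largest fall of the 50, 36.6% (log2 fold change -0.69 ± 0.18 SE, limma adjusted p = 0.0437, 0.00841 to 0.227 over the alternatives), although knockout library 1 was near the wild-type range. Psrc1 was also the scarcest member per length, at 4.67 RPKM. Rangap1, the GTPase activator of Ran, is on chromosome 15 (81704248 to 81745530) and had 11410.1, 10453 and 10838 reads in wild type and 9234, 8635 and 7149 in knockout (-0.39 ± 0.10 SE, limma adjusted p = 0.0424, 0.0130 to 0.166 over the alternatives). Tmpo, which encodes the lamina-associated polypeptides LAP2, is on chromosome 10 (91147571 to 91181315) and had 24992, 22273 and 24099 reads in wild type and 19855.5, 19574 and 16983.5 in knockout (-0.34 ± 0.09 SE, limma adjusted p = 0.0456, 0.0173 to 0.184 over the alternatives).

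For Rangap1 and Tmpo the wild-type libraries lay close together and all knockout libraries were lower. On the opposite strand Rangap1 shares 1.34% of its exon bases with Zc3h7b, and Tmpo 2.22% with Gm26765. Top2a, the decatenating topoisomerase, had 33725, 24809 and 26067 reads in wild type and 21702, 24707 and 20237 in knockout, which did not overlap but nearly touched (-0.34, limma adjusted p = 0.130). Mki67, the Ki-67 proliferation antigen that coats mitotic chromosomes, was at -0.30 with overlapping groups, and Anln, the anillin of the cytokinetic ring, at -0.03.

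**Figure D5:**
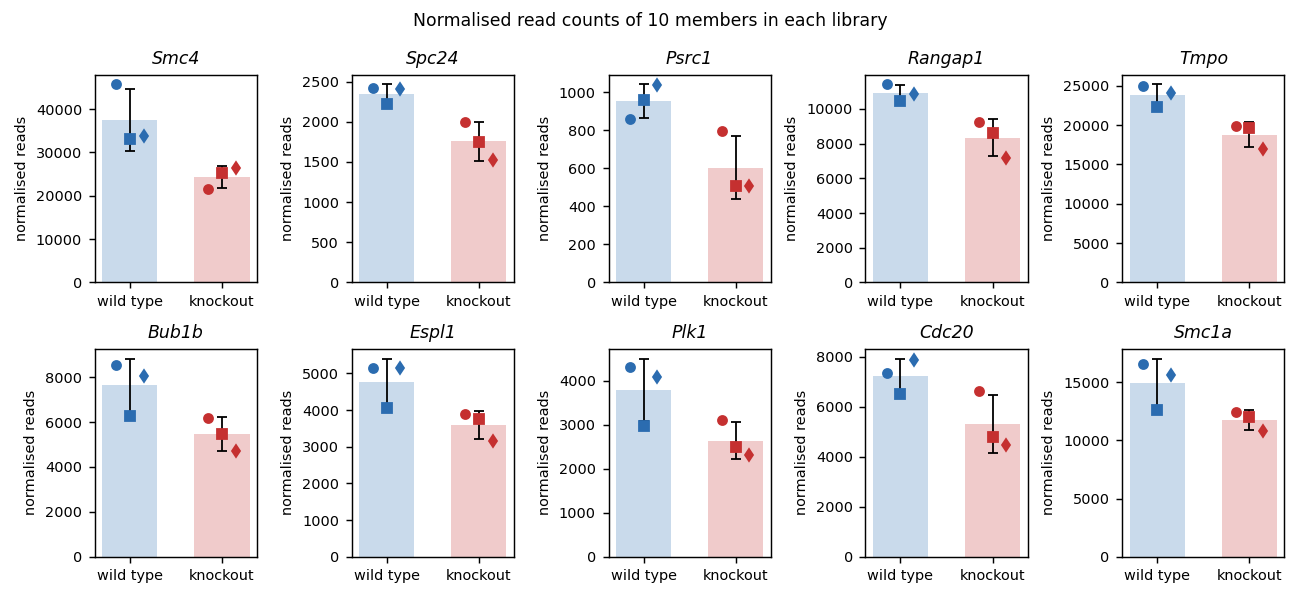
Normalised reads of 10 members in each library (circle, square and diamond for libraries 1, 2 and 3), with each bar at the mean and its SD as a line (n = 3). The 5 members of the upper row fell and their groups do not overlap, while Plk1 and Cdc20 in the lower row overlap between groups.

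Other genes of these pathways also gave calls. Shares that fell were 12.5% for cohesin loading and SMC5/6, 9.68% for the anaphase-promoting complex list and 5.88% for other kinetochore genes. They were 15.8% for the nuclear envelope and Ran list, 16% for G1/S genes and 0% for the spindle and G2/M regulator lists. Of the members 10% fell, as did 3.43% of all genes tested and 5.57% of those with at least 10 CPM. Among 16 tested genes of cohesin loading, cohesin protection and the SMC5/6 complex, 2 fell and 1 rose, with a median of -0.08. Hdac8, the deacetylase that recycles SMC3, had 987, 791 and 881 reads in wild type, and 661, 658 and 619 in knockout. Its log2 fold change was -0.45 ± 0.12 SE (limma adjusted p = 0.0419). Nsmce1, which encodes a ubiquitin ligase subunit of SMC5/6, fell by 0.40 on the log2 scale. Stag3, the meiotic counterpart of Stag1 and Stag2, was scarce at 0.155 RPKM and rose from 5.0, 15.8 and 10.8 reads to 74.1, 84.1 and 68.2 (2.72 ± 0.35 SE, limma adjusted p = 0.004). The cohesin loader gene Nipbl was at -0.07 with overlapping groups.

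Of 31 genes of the anaphase-promoting complex and of mitotic entry and exit, 3 fell and none rose (median -0.13). These were Cdc25b, a phosphatase that activates CDK1, at -0.53, Bora, an activator of Aurora A, at -0.39, and Cdc16, a subunit of the anaphase-promoting complex, at -0.31. Cdc25b had 10386, 7641 and 9005 reads in wild type, and 6444, 5801 and 6309 in knockout, without overlap. Of 34 other kinetochore genes 2 fell, Mad1l1 (-0.40) and Zw10 (-0.32), which help bring MAD2 and dynein to kinetochores, and none rose (median -0.11). None of 24 spindle assembly and cytokinesis genes passed in limma (7 at an unadjusted p under 0.05) or edgeR, with a median of -0.14, and DESeq2 called Hmmr and Numa1. In the lists before it, edgeR did not call Zw10 and DESeq2 added Ube2c.

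In the nuclear envelope and Ran list, which does not hold Rangap1 or Tmpo, 3 of 19 fell and none rose, with the lowest median of the pathway lists (-0.24). Ran, the GTPase on which RANGAP1 acts, had 30777, 33084 and 30321 reads in wild type, and 24317, 25127 and 20102 in knockout (-0.44 ± 0.10 SE, limma adjusted p = 0.0247). Its exchange factor gene Rcc1 fell by 0.36 and the importin beta gene Kpnb1 by 0.35 on the log2 scale, and Kpnb1 shares 7.07% of its exon bases with the antisense Gm11583. All 3 genes had groups that did not overlap, edgeR called Ran alone, and DESeq2 called 6, adding Lmnb2, Nutf2 and Ranbp1.

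Regulators of G2/M transcription had a median of -0.09, with 1 of 21 rising and none falling. Foxm1 (-0.16) and Mybl2 (0.05), whose products act with MuvB, did not pass. E2f7, an atypical E2F that represses E2F targets, was the scarcest of this list at 0.759 RPKM (list median 14.4). It rose from 233, 214 and 199.7 reads to 458, 514 and 384 (1.05 ± 0.16 SE, limma adjusted p = 0.00516). Among 25 G1/S genes 4 fell, Pola1 of DNA polymerase alpha (-0.49) and 3 subunits of the replicative helicase, Mcm2 (-0.45), Mcm6 (-0.38) and Mcm5 (-0.37), and the median was -0.23. DESeq2 added Mcm3 and Mcm7. The difference between these lists and the members was not tested.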

How the data were processed

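PolyA RNA of 6 mouse leukaemia samples, 3 per genotype, gave paired reads of 150 bp, per the labels' protocols. The submitters' processing notes name bcl2fastq 1.8.4, STAR 2.6.0a, featureCounts, DESeq2 and GRCm38; the sources used here give no annotation, strand setting or rule for multi-mapped reads. The deposited signal per gene is a read count divided by 1 size factor per library, as read from the values. Dividing by the value of 1 read gave whole reads for 100% of values in each library (tolerance 0.01), although in knockout library 3 and wild-type library 1 that value is so near 1 that low values alone would not show it. Of 23314 rows, 8 without a gene identifier held at most 0.00106% of reads and were left out. Of 23306 identifiers 23277 were found in GENCODE M21.

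A gene was kept where 3 or more libraries reached a value of 10, and kept genes were fitted with limma 3.58.1 (R 4.3.3) on log2(value + 2), trend and robust, with group as the only term. Its p-values were adjusted over all genes tested. Fold changes on this scale understate changes of low genes. Counts of reads were tested with edgeR 4.0.16 and DESeq2 1.42.0 as alternatives. RPKM used recovered reads, library totals and GENCODE exon lengths. Replicates differed by more than sampling noise (chi-square per degree of freedom 11.9 to 51.7). The limma step was tested only on simulated counts, with planted changes larger than those of most members and noise independent between libraries. That test does not cover small changes or shifts shared by many genes of a library.

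The members and lists were chosen with earlier results of these data known. All members are named; values in every library are given for members that fell and, in each role group, for those with the smallest p and the most abundant per length. Values of Smc1a, Hdac8, Stag3, Cdc25b, Ran and E2f7 by library were added after they were seen. So were Foxm1, Mybl2, Nipbl and all ratios. Pathway lists name their called genes. Figures used Python 3.11.15 and matplotlib 3.10.9.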

Additional observations from a re-analysis of the deposited data

How the results depend on the processing

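The count of members that fell, 5 in all, was 1 with upper-quartile scaling (2.36% of all genes fell), 1 with library totals (1.67%), 3 in edgeR, 9 in DESeq2, 0 in limma without trend and robust (0.689%), 12 at an adjusted p under 0.1 (6.75%) and 0 at 0.01 (0.495%). Leaving out 1 library gave 0 to 17. Over all genes 652 were called without trend and robust and 253 to 1941 with 1 library left out, against 1575. Without both wild-type library 2 and knockout library 3, chosen after seeing the data, 980 genes were called. The cause was not tested. With the replicate block, 12 members and 2568 genes were called (6.16% of genes fell). Whether the numbers pair the samples is not given, and the correlations do not settle it. Same-numbered libraries had deviations that correlated at 0.012, 0.50 and 0.14, and libraries of other numbers at -0.48 to 0.38. Libraries 1 and 3 of wild type correlated best with another number. Role group medians moved by less than their spread between libraries in each alternative.

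Of 950 member values under 19 alternatives, 847 kept direction and side of the threshold. Most of these belong to the 45 members that did not fall. Another 41 values, all of the 5 members that fell, lost the call, and 34 values of other members gained one. The 5 kept their call in 9 (Psrc1) to 13 (Smc4) of the 19 alternatives. The 28 that changed sign were small in each case, from -0.10 to 0.08, and none passed the test. Ncapd3 was 0.0310 with upper-quartile scaling, 0.0796 with totals, 0.00386 in edgeR and 0.0150 in limma-voom. Stag1 was 0.0306, 0.0792, 0.0111 and 0.0147 in that order, and 0.00689 in DESeq2. Anln was 0.000126 with upper-quartile scaling and 0.0487 with totals, and Ncaph2 was 0.0127 with totals. With libraries left out, Ncapd3 ranged from -0.132 to 0.0617, Stag1 from -0.0805 to 0.0429, Anln from -0.124 to 0.0346, Ncapg2 from -0.0966 to 0.112, Esco2 from -0.195 to 0.00739, Pttg1 from -0.226 to 0.0343, Cdk1 from -0.207 to 0.00366 and Ndc80 from -0.177 to 0.0245. In the shorter promoter window of 100 bases before to 50 after the start, TTTGAA was in 23 members (9.23% of all genes). CCAAT was there in 23 (26.3%), TTCGAA in 3 (0.699%), TTCCCGC in 5 (2.98%) and TTGGCGC in 4 (1.63%). The member with the fewest reads had a mean of 13 CPM.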
